A study of Mus musculus with 6 samples.

Results

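The integrin subunit genes described here are 10 of the 21899 genes listed in each liver library, taken by symbol: Itgam, Itgal, Itgb2, Itgb7 and Itga4, which leukocytes use, and Itgb1, Itgav, Itgb5, Itga1 and Itga9, which are prominent in stromal, endothelial and epithelial cells. All 10 were found and all 10 passed the filter on low counts. The libraries came from livers of C57BL/6 mice, 3 labelled CDAA and 3 labelled CSAA. In this field the names stand for choline-deficient and choline-supplemented amino acid-defined feed. Mice entered at an age of 6 weeks and acclimatised for 1 week. Those on CDAA were moved to it over 1 week of mixed feed, and livers were taken in week 6 after that. No genetic change is given for either group, sex is not stated, and each library is 1 mouse as far as the labels say.

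Integrins are cell surface receptors made of 1 alpha and 1 beta chain. They bind matrix proteins or counter-receptors on other cells, and talin and kindlin bound to the beta tail switch them to the active form. In liver, the beta chain encoded by Itgb2 pairs with those of Itgal (LFA-1) and Itgam (Mac-1) on leukocytes that hold to ICAM-1 on the sinusoid wall. The product of Itga4 pairs with that of Itgb1 to bind VCAM-1, or with that of Itgb7 to bind MAdCAM-1. The chains of Itgav and Itgb5 form a vitronectin receptor, and that of Itga1 with Itgb1 a collagen receptor.

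Groups are called by their labels. Choline-deficient feeding of mice is known for liver inflammation and fibrosis, whereas many leukocyte and collagen transcripts were lower in the libraries labelled CDAA than in those labelled CSAA. No transcript was tested here as a marker of the feed, so every direction below rests on the labels. Library totals were 14580676 to 15291743 reads in CDAA and 15459290 to 17367173 in CSAA. CDAA replicate 1 stood apart in genes of pancreas and muscle, with 8 pancreatic acinar genes summing to 1574 CPM (reads scaled to a common library size, with TMM factors) and 8 striated muscle genes to 246.0 CPM. In the other 5 libraries these sums were at most 7.17 and 1.13 CPM, and without CDAA replicate 1 the integrin members called lower numbered 5. As a check of the tissue, 10 hepatocyte markers summed to between 99574 and 112051 CPM in CDAA and between 67649 and 88405 CPM in CSAA.

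Most leukocyte subunits fell in CDAA livers, and 3 of the 5 stromal subunits did not pass the test. Across the 10 members 6 fell, 0 rose and 4 did not pass the test (edgeR's quasi-likelihood test, Benjamini-Hochberg adjusted p under 0.05 over 12845 genes). Over all genes tested, 10.5% were called lower and 4.25% higher. Those that fell were Itgal, Itgb2, Itga4 and Itgb7 of the 5 leukocyte members, and Itga9 and Itgb5 of the 5 stromal members. The log2 fold changes, CDAA over CSAA, had a median of -1.92 among leukocyte members (range -2.62 to -1.44) and of -0.19 among stromal members (range -0.60 to -0.09). The median over all 10 was -1.02, beside 0.00 over all genes tested. In 7 of 10 members every CDAA library lay below every CSAA library, where 20.4% of all genes tested did so, and 36.1% did not overlap in one direction or the other. The counts of members called lower ran from 4 to 6 when single libraries were left out.

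**Figure D1:**
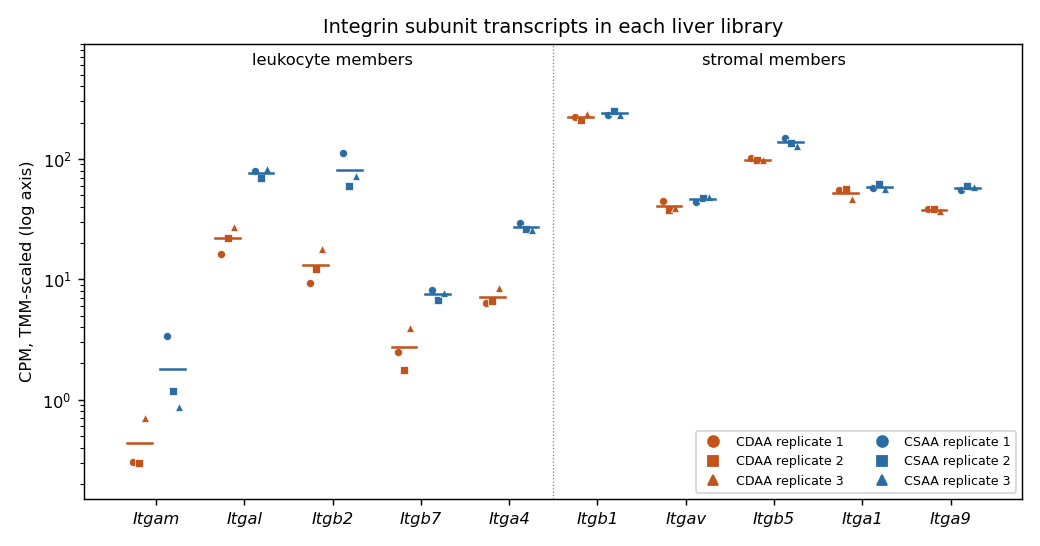
TMM-scaled CPM on a log axis for the 10 integrin members, 1 point per library, with CDAA left of CSAA and horizontal lines at the group means. All 5 leukocyte members have their CDAA points below their CSAA points, whereas Itgb1, Itgav and Itga1 overlap.

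Itgb2 encodes the beta chain shared by LFA-1 and Mac-1. It lies on chromosome 10 from 77366086 to 77401542, in the files' coordinates, whose build the headers do not name. It was at 9.35, 12.3 and 17.8 CPM in CDAA replicates 1 to 3, against 111, 59.5 and 72.1 CPM in CSAA replicates 1 to 3. The groups did not overlap, and CSAA replicate 1 stood highest. The log2 fold change was -2.62 ± 0.30 (SE, edgeR adjusted p = 0.00197), the largest fall among the 10 members, or 6.14-fold lower. Itgb2 passed in all 6 fits that left out a library.

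Itgal, on chromosome 7 from 126895432 to 126934310, encodes the alpha chain of LFA-1, the receptor with which lymphocytes and other leukocytes bind ICAM-1. CDAA libraries held 16.3, 22.1 and 27.2 CPM of Itgal and CSAA libraries 79.2, 69.3 and 82.2 CPM. All CDAA values were below all CSAA values, and Itgal fell by 1.81 ± 0.18 on the log2 scale (edgeR adjusted p = 0.00155).

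Itgam encodes the alpha chain of Mac-1, which myeloid cells use to bind fibrinogen and complement fragment iC3b. It was the scarcest member, with 4, 4 and 10 reads in CDAA libraries against 69, 22 and 14 reads in CSAA libraries. On the CPM scale these were 0.304, 0.296 and 0.710 in CDAA against 3.39, 1.17 and 0.869 in CSAA, which did not overlap but came close in CDAA replicate 3 and CSAA replicate 3. The log2 fold change of -2.04 ± 0.67 did not pass (edgeR adjusted p = 0.0798), and without CSAA replicate 1 it was -1.18. It passed with DESeq2 (adjusted p = 0.0444) and on library totals without TMM (edgeR adjusted p = 0.0447). The count of Itgam is uncertain, because in the files the gene Gm49368 covers 55809 bases of the Itgam locus on the same strand (chromosome 7, 127661812 to 127717663). In GENCODE M21 those genes share 68.7% of the exonic bases of Itgam, and Gm49368 itself averaged 0.0237 CPM in CDAA and 0 in CSAA. How reads matching both genes were counted is not given in the sources used here, and its part in the low count was not tested.

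Itga4 encodes the alpha chain of VLA-4, which carries monocytes and lymphocytes to VCAM-1. It lies on chromosome 2 from 79085770 to 79163467. Its CPM were 6.39, 6.59 and 8.45 in CDAA and 29.3, 26.3 and 25.8 in CSAA. Spread within each group was small next to the gap between them, and the log2 fold change was -1.92 ± 0.15 (edgeR adjusted p = 0.00121). Cerkl, on the other strand, shares 8.04% of the exonic bases of Itga4 in GENCODE M21, and the strand setting is not given.

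Itgb7, the partner of Itga4 on gut-homing lymphocytes, lies on chromosome 15 from 102124430 to 102140379. It was at 2.51, 1.78 and 3.98 CPM in CDAA against 8.11, 6.72 and 7.70 CPM in CSAA. The groups did not overlap and the log2 fold change was -1.44 ± 0.30 (edgeR adjusted p = 0.0186). The call was lost when any of CDAA replicate 1, CDAA replicate 2, CSAA replicate 1 and CSAA replicate 3 was left out (edgeR adjusted p up to 0.0780).

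Among the stromal members, Itgb1 encodes the beta chain with the most alpha partners and is used by nearly all adherent cells. It lies on chromosome 8 from 129412135 to 129459681. CDAA libraries were at 224, 212 and 237 CPM and CSAA libraries at 233, 252 and 233 CPM. The groups overlapped, and the log2 fold change of -0.09 ± 0.10 did not pass (edgeR adjusted p = 0.583, 95% interval -0.33 to 0.14).

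Itgav, on chromosome 2 from 83554741 to 83637260, encodes the alpha chain of the vitronectin receptors that also bind latent TGF-beta. Its levels were 45.0, 37.5 and 39.1 CPM in CDAA and 43.6, 47.5 and 47.8 CPM in CSAA. CDAA replicate 1 fell within the CSAA range, and the log2 fold change of -0.19 ± 0.11 did not pass (edgeR adjusted p = 0.262, 95% interval -0.44 to 0.05).

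Itga1, on chromosome 13 from 115089632 to 115238500, encodes a collagen-binding alpha chain. It was at 55.0, 56.3 and 46.4 CPM in CDAA against 57.2, 61.9 and 55.8 CPM in CSAA. Within Itga1, 3.68% of exonic bases in GENCODE M21 are shared with Gm49395. The groups overlapped at CDAA replicate 2, and the log2 fold change of -0.15 ± 0.11 did not pass (edgeR adjusted p = 0.394, 95% interval -0.40 to 0.10). On library totals without TMM, Itgav and Itga1 passed as lower (edgeR adjusted p = 0.0194 and 0.0291). On that scale the median of all genes moved by -0.28.

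Itgb5 encodes the beta chain that pairs with that of Itgav to bind vitronectin, and lies on chromosome 16 from 33650035 to 33769708. CDAA libraries held 101, 98.2 and 97.0 CPM and CSAA libraries 149.7, 135 and 129 CPM. The groups did not overlap and the log2 fold change was -0.48 ± 0.10 (edgeR adjusted p = 0.0160). It was lost when CDAA replicate 2, CSAA replicate 1 or CSAA replicate 2 was left out (edgeR adjusted p up to 0.0718).

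Itga9 encodes the partner of the Itgb1 chain that binds tenascin-C and osteopontin, and lies on chromosome 9 from 118435758 to 118730071. Its CPM were 38.6, 38.1 and 36.9 in CDAA and 54.8, 59.3 and 58.2 in CSAA. The groups did not overlap, and the log2 fold change of -0.60 ± 0.09 passed (edgeR adjusted p = 0.00511). It also passed in all 6 fits that left out a library, as did Itgb2, Itgal and Itga4.

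Levels of different genes can be set side by side only per length, for which the deposited FPKM (reads per kilobase of the listed gene length and of the library total) were used. On that scale Itgb1 was the most abundant member in both groups, at 49.9 ± 4.33 FPKM in CDAA and 64.7 ± 4.57 FPKM in CSAA (mean ± SD, n = 3 each), and Itgam the least, at 0.0796 ± 0.0456 and 0.409 ± 0.333 FPKM. These FPKM rest on library totals and carry no TMM factor, and the groups of Itgb1 did not overlap on this scale although they did in TMM-scaled CPM. On library totals its log2 fold change was -0.37 and did not pass (edgeR adjusted p = 0.0515). Itgb5 came next at 25.2 ± 0.667 FPKM in CDAA and 43.0 ± 5.88 FPKM in CSAA. The rank of Itgb2 was 4 in CDAA livers, at 3.93 ± 1.39 FPKM, and 3 in CSAA livers, at 29.6 ± 11.4 FPKM. In CDAA the ranges of Itga9, Itgb2, Itgav, Itgal and Itga1 overlapped between each neighbour in the order, so that the order of neighbours is not resolved. The range of Itga9 lay above those of Itgav, Itgal and Itga1, and that of Itgav above that of Itga1. In CSAA only Itgb5 with Itgb2, and Itga1 with Itgb7, overlapped as neighbours. Within each CSAA library Itgb5 was nevertheless above Itgb2, and Itga1 above Itgb7. The 5 leukocyte members together made up 8.87 ± 2.20% of the summed FPKM of all 10 in CDAA and 27.6 ± 4.61% in CSAA, while the share of Itgb5 was 26.9 ± 1.51% and 25.0 ± 0.585%.

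**Figure D2:**
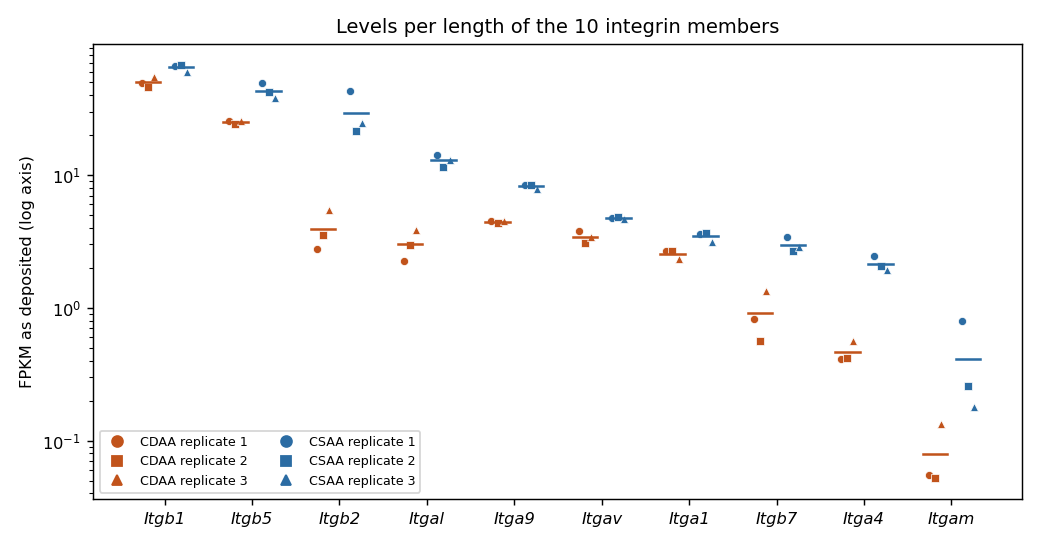
Deposited FPKM on a log axis for the 10 members, ordered by their CSAA mean, with CDAA left of CSAA, 1 point per library and lines at group means. Itgb2 sits near Itgb5 in CSAA, but near Itga9 and Itgav in CDAA.

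Because alpha and beta chains reach the surface as pairs, the ratio of partner transcripts was taken within each library, where it does not depend on library scaling. In bulk liver the reads of partners can come from different cells, so these ratios do not measure pairing within a cell. The ratio of Itgal to Itgb2 was 0.812, 0.837 and 0.709 in CDAA and 0.331, 0.541 and 0.530 in CSAA. It was higher in every CDAA library, by 0.78 on the log2 scale (exact two-sided permutation p = 0.1, adjusted p = 0.26 over 13 ratios). With 3 libraries a group, 0.1 is the smallest p this test can give. Itga4 to Itgb1 was 0.00834, 0.00909 and 0.0104 in CDAA and 0.0367, 0.0305 and 0.0323 in CSAA, lower in every CDAA library. Itga9 to Itgb1 was also lower in every CDAA library, at 0.0899 ± 0.00671 in CDAA and 0.127 ± 0.00441 in CSAA. Itgav to Itgb5 was above the CSAA range in every CDAA library, at 0.136 ± 0.0109 in CDAA and 0.112 ± 0.0137 in CSAA. Each of these also had an exact permutation p of 0.1 (adjusted p = 0.26). For the other partner ratios the libraries of the groups overlapped. Itgam to Itgb2 was 0.0195 ± 0.00479 in CDAA and 0.0126 ± 0.00564 in CSAA (exact permutation p = 0.2). Itga4 to Itgb7 was 0.553 ± 0.163 in CDAA and 0.719 ± 0.0569 in CSAA (exact permutation p = 0.3). Itgav to Itgb1 was 0.0687 ± 0.00711 in CDAA and 0.0736 ± 0.00378 in CSAA (exact permutation p = 0.4). Itga1 to Itgb1 was 0.0517 ± 0.00799 in CDAA and 0.0535 ± 0.000772 in CSAA, with overlapping libraries (exact permutation p = 1).

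Leukocyte members were also set against Ptprc, which encodes the pan-leukocyte phosphatase CD45. Ptprc was at 17.6, 16.7 and 24.3 CPM in CDAA and 81.7, 63.2 and 70.7 CPM in CSAA, and fell by 1.88 ± 0.17 on the log2 scale (edgeR adjusted p = 0.00123). Per Ptprc, Itga4 was at 0.476, 0.518 and 0.456 in CDAA and 0.470, 0.546 and 0.477 in CSAA, a log2 difference of -0.04 (exact permutation p = 0.6). Itgal per Ptprc was 2.59, 3.70 and 3.12 in CDAA and 2.70, 3.06 and 3.24 in CSAA, a log2 difference of 0.05 (exact permutation p = 0.9). Itgb2 per Ptprc was 3.19, 4.43 and 4.40 in CDAA and 8.16, 5.65 and 6.12 in CSAA, lower in every CDAA library by a log2 difference of -0.73 (exact permutation p = 0.1). Itgb7 per Ptprc was 0.911 ± 0.191 in CDAA and 0.693 ± 0.0328 in CSAA, a positive log2 difference of 0.37 with overlapping libraries (exact permutation p = 0.2). Itgam per Ptprc was 0.0782 ± 0.0246 in CDAA and 0.0879 ± 0.0561 in CSAA (exact permutation p = 0.9). Of the 5 leukocyte members, Itgb2 was the one whose ratio to Ptprc did not overlap between groups. Its adjusted p over the 13 ratios was 0.26. Among single genes, in TMM-scaled CPM, 36.1% of all tested did not overlap between groups.

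**Figure D3:**
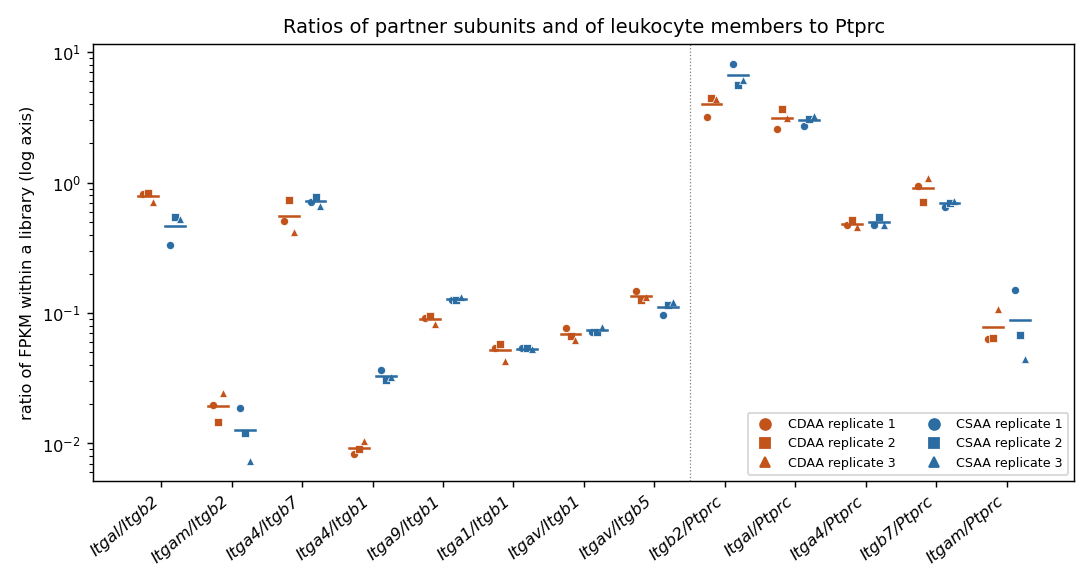
Ratios of deposited FPKM within each library on a log axis, CDAA left of CSAA, with lines at group means; partner subunits left of the dotted line and leukocyte members over Ptprc right of it. Itgal/Itgb2 lies higher and Itgb2/Ptprc lower in CDAA, while Itga4/Ptprc and Itgal/Ptprc overlap.

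Markers of leukocytes moved with these members. All 6 pan-leukocyte markers fell, and their summed level was 180.1 to 232.7 CPM in CDAA against 389.8 to 480.0 CPM in CSAA. With the replicate block 5 fell, and 5 when any library other than CDAA replicate 3 was left out. All 8 monocyte and macrophage markers fell, with sums of 268.7 to 315.1 CPM in CDAA against 795.4 to 1165 CPM in CSAA, but 7 without CDAA replicate 2 or CSAA replicate 1. Of 9 T cell markers 7 fell, with sums of 6.69 to 8.14 CPM in CDAA against 25.5 to 40.8 CPM in CSAA, but 3 without CSAA replicate 1 and 4 without CSAA replicate 3. Of the 8 neutrophil markers 2 could be tested and fell, with sums of 6.01 to 7.17 CPM in CDAA and 14.1 to 30.7 CPM in CSAA, and Ly6g had 0 reads in all 6 libraries. Of 5 Kupffer cell markers 2 fell, Marco and Cd5l. Of 5 B cell markers 1 fell, of 6 dendritic cell markers 4, and of 4 tested NK cell markers 1. The B cell and NK cell calls were each lost whichever library was left out. The dendritic cell count was 2 without CDAA replicate 1, CSAA replicate 2 or CSAA replicate 3, 1 without CDAA replicate 2 and 0 without CSAA replicate 1. The Kupffer cell count was 1 without CDAA replicate 2 or CSAA replicate 1, and the neutrophil count 1 without CDAA replicate 2, CSAA replicate 1 or CSAA replicate 3. In bulk liver, fewer cells of a type and less RNA per cell cannot be told apart. The part of leukocyte content in the falls of the integrin members was not tested. The ratios to Ptprc are no test of it, since with 3 libraries a group their permutation p cannot go under 0.1.

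Sinusoidal endothelial, stellate cell and myofibroblast markers fell in part, and 0 of them rose. Cholangiocyte and hepatocyte markers are given beside them. Of 9 sinusoidal endothelial markers 4 fell (sums of 485.5 to 528.6 CPM in CDAA and 636.0 to 664.4 CPM in CSAA), and of 7 stellate cell markers 3 fell (308.2 to 384.5 CPM in CDAA and 394.5 to 447.6 CPM in CSAA). Of 7 myofibroblast markers 6 fell, with sums of 145.9 to 316.0 CPM in CDAA and 518.5 to 832.9 CPM in CSAA, but 3 without CDAA replicate 2 and 2 without CSAA replicate 1. The sinusoidal endothelial count was 2 without CDAA replicate 1 or CSAA replicate 3, 1 without CDAA replicate 2 and 0 without CSAA replicate 1 or CSAA replicate 2, and on library totals without TMM it was 9. The stellate cell count was 2 without CDAA replicate 2, CSAA replicate 1 or CSAA replicate 2. Of 4 tested cholangiocyte markers 0 passed, and of 10 hepatocyte markers 2 rose, Cps1 and Pck1. Neither passed without CDAA replicate 1, CDAA replicate 2, CSAA replicate 1 or CSAA replicate 2, Pck1 did not pass without CSAA replicate 3, and DESeq2 called 6 hepatocyte markers higher. The medians of the log2 fold change were -0.38, -0.44, -1.88, -0.78 and 0.45 for these 5 lists. Without CSAA replicate 1 the cholangiocyte median was 0.17. The log2 fold changes of Itga9 and Itgb5 were -0.60 and -0.48. Which cells these reads came from was not tested.

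The mouse has 26 integrin subunit genes, and the other 16 were also looked up. Of these 14 were tested, 1 fell and 13 did not pass, where 10.5% of all genes tested were called lower. The median log2 fold change of the 14 was -0.29. The one that fell was Itgax, which encodes the CD11c alpha chain, another partner of the Itgb2 chain found on dendritic cells and macrophages. Itgax was at 1.90, 3.03 and 2.56 CPM in CDAA and 49.6, 25.3 and 22.8 CPM in CSAA, and fell by 3.70 ± 0.36 on the log2 scale (edgeR adjusted p = 0.00149), a larger estimate than that of any of the 10 members. Itgb3 and Itga2 had no overlap between groups but did not pass (log2 -0.52 ± 0.19 and -2.18 ± 0.72). Itga2b, the platelet subunit, was at 3.84 ± 0.443 CPM in CDAA and 3.93 ± 0.274 CPM in CSAA (log2 -0.03 ± 0.22, edgeR adjusted p = 0.940). Itgad and Itgb6 did not reach the filter on low counts.

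**Figure D4:**
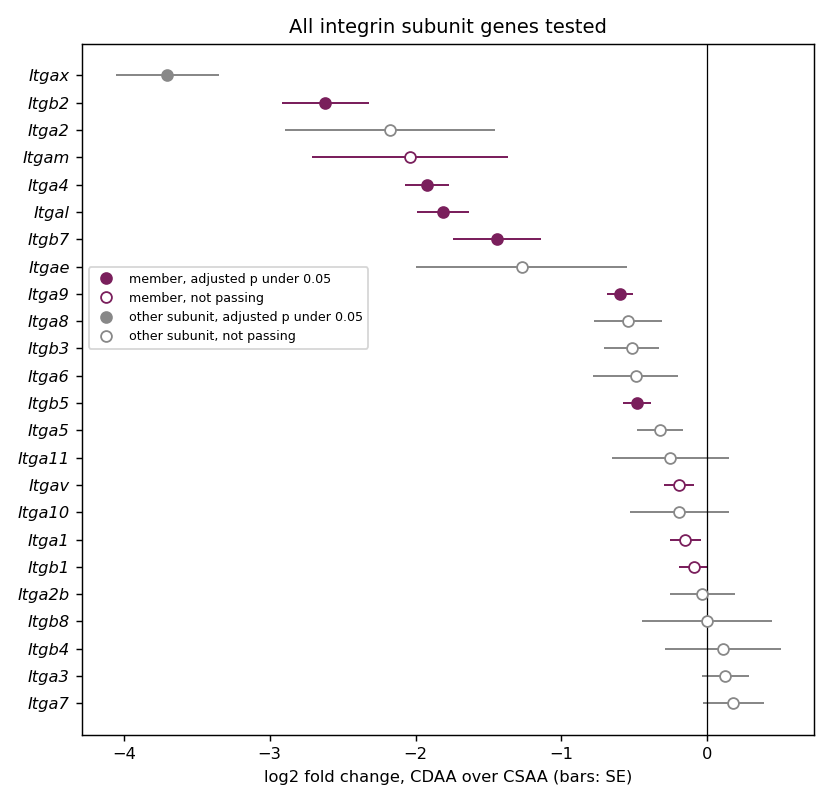
Log2 fold change with SE, CDAA over CSAA, for the 24 integrin subunit genes tested, from the most negative at the top. Filled symbols passed at an adjusted p under 0.05; these are Itgax and 6 of the 10 members, all negative.

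The promoters of 4 members are shown, Itgam and Itga4 of the leukocyte group and Itgb1 and Itgb5 of the stromal group. These are the windows with a match to GGGCGG, described next. The window of Itgav, of the stromal group, holds a match to GAGGAAG and is not shown. RefSeq promoter sequences on GRCm38.p6 matched 8 of the 10 members, and the 250 bases before the start of transcription were searched on both strands. The motifs were GAGGAAG, a core bound by PU.1, the myeloid and lymphoid transcription factor, and GGGCGG, the GC box bound by Sp1, and in Itgam, which holds both, the matches do not overlap. Of 32851 promoter windows, 10.6% held the first and 32.7% the second. Capitals mark matches in either orientation. These windows are on GRCm38.p6, while the gene positions above are in the files' own coordinates, so the sets cannot be placed together. The window of Itga4 lies beyond the end of Itga4 given above, so the files' positions are not on GRCm38. Itgam is at chr7:128062390-128062639 (plus strand) and Itga4 at chr2:79255176-79255425 (plus strand). Itgb1 is at chr8:128685404-128685653 (plus strand) and Itgb5 at chr16:33829415-33829664 (plus strand).
Itgam: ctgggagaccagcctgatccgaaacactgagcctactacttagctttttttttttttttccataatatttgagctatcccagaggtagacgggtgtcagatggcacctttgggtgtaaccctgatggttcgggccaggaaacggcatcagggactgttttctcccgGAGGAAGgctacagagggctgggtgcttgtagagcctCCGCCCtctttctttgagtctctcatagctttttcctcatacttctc
Itga4: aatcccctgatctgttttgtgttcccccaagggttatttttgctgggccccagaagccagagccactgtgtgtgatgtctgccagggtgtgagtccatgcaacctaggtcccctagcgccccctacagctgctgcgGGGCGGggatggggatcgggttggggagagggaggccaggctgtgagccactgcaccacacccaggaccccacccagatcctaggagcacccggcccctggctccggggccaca
Itgb1: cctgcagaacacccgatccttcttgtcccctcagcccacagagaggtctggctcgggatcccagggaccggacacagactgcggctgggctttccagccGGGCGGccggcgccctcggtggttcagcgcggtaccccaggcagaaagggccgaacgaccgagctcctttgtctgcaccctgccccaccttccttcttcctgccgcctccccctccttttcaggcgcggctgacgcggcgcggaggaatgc
Itgb5: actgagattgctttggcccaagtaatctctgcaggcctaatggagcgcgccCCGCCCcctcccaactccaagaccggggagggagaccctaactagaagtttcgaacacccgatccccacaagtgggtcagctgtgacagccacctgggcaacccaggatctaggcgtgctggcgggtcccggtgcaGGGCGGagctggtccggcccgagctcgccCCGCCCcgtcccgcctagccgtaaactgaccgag
GAGGAAG was found in 2 of the 8 windows, 1 match beginning 84 bases before the start of Itgam and 1 beginning 8 bases before that of Itgav. GGGCGG was found in 4, with 3 matches in Itgb5 and 1 each in Itgam, Itga4 and Itgb1. The windows of Itgb7, Itga1 and Itga9 held neither. G and C made up 49.6% of the window of Itgam, 56.0% of that of Itgb7, 57.6% of that of Itga1 and 58.4% of that of Itga9. In the windows of Itga4, Itgav, Itgb5 and Itgb1 the share was 64.0% to 68.0%. A match is a string of letters and says nothing of binding in these livers.

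Among ligands of the leukocyte integrins the adhesion molecules Icam1 and Vcam1 fell. Of 12 tested genes 2 fell, 0 rose and 10 did not pass (median log2 -0.20), where 10.5% of all genes tested were called lower. Icam1, the ligand of LFA-1 and Mac-1, was at 7.07, 10.1 and 17.05 CPM in CDAA and 46.9, 38.9 and 47.6 CPM in CSAA (log2 -1.96 ± 0.28, edgeR adjusted p = 0.00458). Vcam1, the ligand of the Itga4 chain, was at 14.1, 18.7 and 21.6 CPM in CDAA and 53.6, 48.9 and 58.9 CPM in CSAA (log2 -1.57 ± 0.16, edgeR adjusted p = 0.00158). Madcam1, the ligand for the Itgb7 chain, was at 0.148 CPM in CDAA replicate 2 and had 0 reads in the other 5 libraries. The fibrinogen genes Fga, Fgb and Fgg, named after their values were seen, had log2 fold changes of 0.84, 0.73 and 0.73 that did not pass with edgeR. With DESeq2, and in edgeR without CSAA replicate 3, 3 ligands of this list were called higher, and 2 with limma-voom.

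Of 17 matrix and plasma ligands of the stromal subunits 11 fell and 0 rose (median log2 -0.92). Tgfb1, whose latent form is bound by Itgav integrins, had a mean of 12.3 ± 0.940 CPM in CDAA and 32.8 ± 5.49 CPM in CSAA (log2 -1.41 ± 0.15, edgeR adjusted p = 0.00162). The basement membrane collagens Col4a1 and Col4a2, ligands of the Itga1 chain, fell by 1.11 ± 0.12 and 1.00 ± 0.12 on the log2 scale. Col1a1 fell by 2.26 ± 0.33 and Col3a1 by 1.88 ± 0.30. Tnc and Spp1, ligands of the Itga9 chain named after their values were seen, fell by 2.16 ± 0.38 and 0.83 ± 0.19. The plasma ligands Vtn (0.30 ± 0.15) and Fn1 (0.36 ± 0.16) had positive log2 fold changes that did not pass with edgeR. DESeq2 called 1 gene of this list higher. Leaving out CDAA replicate 2 gave 7 genes of this list called lower, and leaving out CSAA replicate 1 gave 6.

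Of 34 tested activators and adaptors of integrins 14 fell, 0 rose and 20 did not pass (median log2 -0.34). Fermt3, the kindlin of blood cells, was at 7.98, 7.18 and 10.6 CPM in CDAA and 29.1, 22.3 and 30.0 CPM in CSAA (log2 -1.66 ± 0.19, edgeR adjusted p = 0.00203). Apbb1ip, which encodes RIAM, the link between Rap1 and talin, fell by 1.60 ± 0.18 on the log2 scale. Fermt2, the kindlin of adherent cells, was at 182, 256.0 and 164 CPM in CDAA and 160, 163 and 155 CPM in CSAA. It did not pass (log2 0.33 ± 0.17, with an edgeR adjusted p of 0.221). Tln1, the talin of most cells, fell by 0.44 ± 0.10 (edgeR adjusted p = 0.0226). Both Fermt2 and Tln1 were chosen for mention with their values known. Between 8 and 14 genes of this list were called lower when a library was left out, with 8 without CDAA replicate 2 or CSAA replicate 1 and 9 without CDAA replicate 1, CSAA replicate 2 or CSAA replicate 3.

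**Figure D5:**
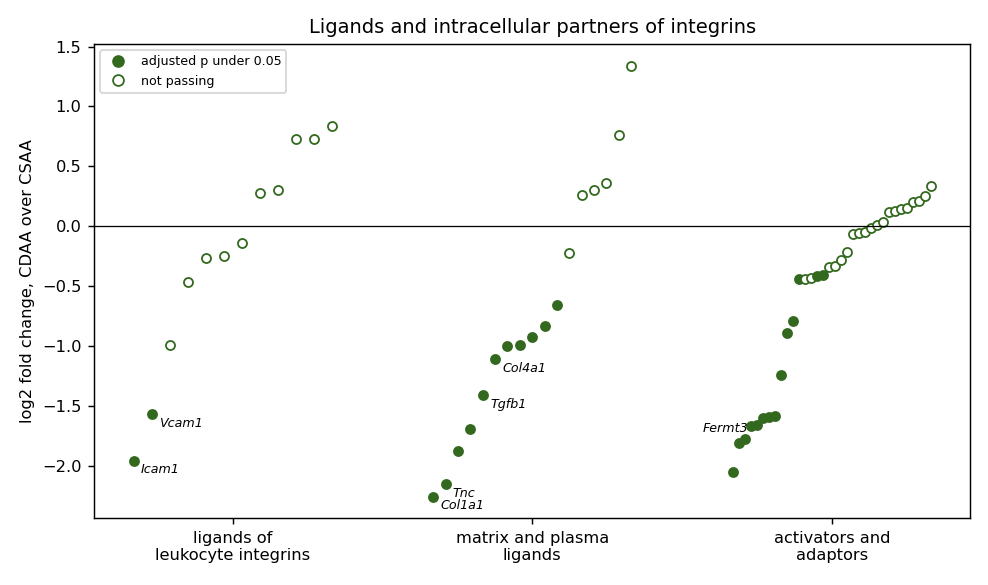
Log2 fold change, CDAA over CSAA, for tested genes of the 3 lists of integrin partners, each list sorted from low to high; filled symbols passed at an adjusted p under 0.05. All filled symbols are below 0, and open symbols lie on either side.

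The genes whose profile over the 6 libraries was nearest to that of a member were found by Euclidean distance of centred log2 CPM among the 9952 genes averaging 5 CPM or more. For Itgb2 they were Csf2rb2, Lilr4b and Tlr2, at distances of 0.383, 0.518 and 0.555. Csf2rb2 was at 2.05, 3.11 and 3.34 CPM in CDAA and 28.3, 15.6 and 17.8 CPM in CSAA. For Itgb1 they were Vac14, Dpagt1 and Sptbn1, at 0.0610, 0.0686 and 0.0715. None of these 3 passed between the groups, and the points share their libraries.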

How the data were processed

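Liver RNA of 6 mice was sequenced, 3 labelled CDAA and 3 labelled CSAA, from 1 deposited file per library. The count column holds whole-number reads per gene as deposited by the authors. The FPKM column, per the file headers, equals that count scaled by the listed length and library total. HISAT2 2.0.5 and HTSeq 0.9.1 are named beside DESeq 1.30.0 and cutadapt 1.15, per the submitters' processing notes, which list builds mm10 and mm9. The listed gene positions are not on mm10, the same build as GRCm38. The strand setting and how ambiguous reads were treated: not given in the sources used here.

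In R 4.3.3, glmQLFit and glmQLFTest of edgeR 4.0.16 were applied to the counts, with filterByExpr on the groups, TMM factors, no covariate and Benjamini-Hochberg adjustment over 12845 genes. An SE is the size of the log2 fold change over the square root of F, and intervals use the test's degrees of freedom. CPM are on TMM-scaled library sizes, where 3 reads correspond to 0.147 to 0.228 CPM. The CPM of 3 reads is a limit for counting error only, whereas the intervals also carry the spread between libraries. Where nothing says that samples were processed separately, p-values measure the spread between these libraries.

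The members and gene lists were chosen with earlier results of these data known. Besides the members, the naming rule took up to 3 passing genes a direction from each of 4 pathway lists, up to 2 from each of 15 marker lists, Ptprc, and 3 nearest profiles for Itgb2 and Itgb1. Ratios of FPKM were compared with an exact permutation test in SciPy 1.17.1. The fit was first tested on simulated data. Planned protein comparisons were not run, since no protein table was used here. Other scalings, filters, DESeq2 1.42.0, limma 3.58.1 (voom), a replicate block and leaving out each library were tried. 1 gene that the naming rule selects among the activators and adaptors is not reported here.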

Additional observations from a re-analysis of the deposited data

How the results depend on the processing

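All named integrin members kept the sign of their log2 fold change under every alternative that could be fitted. With TMM 546 genes were higher and 1355 lower in CDAA. On library totals alone 137 were higher and 2756 lower, and the median of all genes moved by -0.28, with 9 of 10 members lower. DESeq2 called 1088 genes higher, and 7 members lower. Leaving out 1 library gave 76 to 688 genes higher, 568 to 1456 lower, 0 members higher and 4 to 6 members lower, with the fewest genes without CSAA replicate 1 and the most without CDAA replicate 3. With RLE factors, upper-quartile factors, no filter on low counts, the stricter filter, limma-voom or the replicate block, 6 members were lower and 0 higher. Itgam was not kept by the stricter filter. Same-numbered libraries did not deviate together (r = 0.0680, 0.124 and -0.0628), so the numbers were not taken as pairing, and with the replicate block 293 genes were higher. Under that block 1 sinusoidal endothelial marker and 0 B cell markers were lower, 0 hepatocyte markers were higher, and 10 activators and adaptors were lower. The 104 alternative values of the 13 ratios moved by less than 1 SD, pooled over the groups on the log2 scale. Leaving out 1 library cannot move a difference of 3 against 3 that far, and the replicate block returns the same difference. Only the values from reads summed over each group could have moved so much, so this count does not measure stability. Why single calls changed was not tested. Depth limits Itgam most, at 4 to 10 reads in CDAA.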

Other observations

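Ilk, the kinase-like adaptor bound to integrin beta tails, was listed at 0 reads in 5 libraries and at 0.228 CPM in CDAA replicate 1. In GENCODE M21 it shares 76.7% of its exonic bases with Taf10, a larger share than the 68.7% of Itgam shared with Gm49368. How ambiguous reads were counted is not given in the sources used here, so the listed level of Ilk was not read as absence of the transcript.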
